A study of Mus musculus with 6 samples.

Results

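The miRNAs described here come from the X-linked cluster of Mir322, Mir503, Mir351, Mir542, Mir450-2, Mir450-1 and Mir450b. Wells were chosen by name. A well belonged to the cluster if its miRBase name, without species, arm and assay number, was miR-322, miR-503, miR-351, miR-542, miR-450a or miR-450b. Names ending in # or *, which mark a minor strand, were kept apart. This gave 12 of 768 wells, 9 on the first PCR card and 3 on the second. The cluster was picked for description after the hyperoxia values of miR-503 and of a miR-322 well were known, so the differences between groups below are a description and carry no test of their own.

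The study quantified miRNAs with RT-PCR cards in right lungs of 7-day-old mouse pups. Pups under 12 h old were placed in 95% oxygen for 7 days (hyperoxia, 3 samples) or kept in room air (3 samples), and the dams were moved daily between both atmospheres. The pulmonary artery was flushed with PBS before the lung was taken. Strain and sex of the pups are not given in the sources used here, nor whether each sample was 1 animal.

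MicroRNAs are short RNAs cut from the arms of a hairpin. They bind partly matching sites in messenger RNAs, mainly through the seed, bases 2 to 8 from the 5′ end, and lower the output of those messengers. miR-322 (the mouse counterpart of human miR-424) and miR-503 are relatives of miR-15 and miR-16, which restrain the cell cycle by repressing cyclins and other cell cycle genes, and both are known from differentiating muscle and from endothelium. miR-351 is a relative of miR-125, and miR-542-3p is known to repress survivin, an inhibitor of cell death.

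In RefSeq's mouse annotation (GRCm38.p6) the 7 hairpins lie on the minus strand at chrX:53047997-53054349, a stretch of 6353 bp. In the direction of transcription Mir322 comes first. The 5′ end of Mir503 lies 295 bp further on, Mir351 996 bp, Mir542 4862 bp, Mir450-2 5982 bp, Mir450-1 6105 bp and Mir450b 6271 bp. The first 3 hairpins fall inside the long non-coding RNA gene C430049B03Rik (chrX:53053112-53057190). The other 4 lie beyond its end, after a gap of 3767 bp between Mir351 and Mir542. Whether the 3 lie in exons or introns of that gene was not analysed here.

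The mature sequences below, from RefSeq, are shown because the seed sets which messengers a miRNA can bind. Seeds are in capitals. The first group holds the relatives of miR-16, with miR-16-5p for comparison.

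mmu-miR-322-5p: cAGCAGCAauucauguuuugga
mmu-miR-503-5p: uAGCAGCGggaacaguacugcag
mmu-miR-16-5p: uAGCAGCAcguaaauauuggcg

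miR-322-5p has the same seed as miR-16-5p, with 12 of 22 positions identical. miR-503-5p shares the first 6 seed bases with both and differs at the last, and no other mature mouse miRNA in the table has its seed. The second group pairs miR-351 with miR-125b, which has the same seed and 10 of 22 identical positions.

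mmu-miR-351-5p: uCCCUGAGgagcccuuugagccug
mmu-miR-125b-5p: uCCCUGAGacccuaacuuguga

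The last group holds the 4 hairpins outside the non-coding gene. In the table of mature mouse miRNAs the seeds of miR-542-3p, miR-450a-5p and miR-450b-5p occur in no other miRNA, while miR-542-5p shares its seed with miR-6966-5p.

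mmu-miR-542-5p: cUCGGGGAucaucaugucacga
mmu-miR-542-3p: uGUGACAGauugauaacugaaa
mmu-miR-450a-5p: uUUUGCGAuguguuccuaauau
mmu-miR-450b-5p: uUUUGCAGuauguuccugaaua
mmu-miR-450b-3p: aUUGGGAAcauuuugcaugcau

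miR-450a-5p has the same sequence in Mir450-1 and Mir450-2, so an assay for it reads the products of both hairpins. It is identical to miR-450b-5p at 15 of 22 positions, the first 5 seed bases among them. The rat-design wells rno-miR-351 and rno-miR-450a are described by name only.

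The measured value is the threshold cycle (Ct), the PCR cycle at which a well's signal crosses a threshold. An earlier Ct means more RNA, by a fold of 2 per cycle if every cycle doubles the product. Wells that never amplified are listed at 40, and 35 or later was taken as not detected. A relative abundance is the mean Ct of the miRNAs detected on the card in all samples used minus the well's Ct, on a log2 scale. Between 307 and 319 miRNA wells per sample were detected on the first card and 268 to 288 on the second. Room air 1 and hyperoxia 2 share 308 of 309 amplified second-card values, against 0 of 312 on the first card. Their second-card values were therefore left out, and wells of that card rest on 2 samples per group. miR-126-3p, the endothelial miRNA, and miR-200c, an epithelial one, were read at a mean Ct of 11.8 and 16.5 in room air, and the liver miRNA miR-122 at 25.7. The first card's reference, averaged over its 282 assays, lay at 22.4 ± 0.30 cycles (SD, n = 3) for room air and at 23.1 ± 0.45 (SD, n = 3) for hyperoxia. This shift of 0.76 cycles (exact permutation p = 0.1, the smallest that 3 against 3 can give, two-sided) moves with the groups and is taken off in the relative abundance.

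Of the 12 wells, 11 were detected and compared, and miR-450a-3p was at a Ct of 40 in every sample used. If second-card wells are identified by the listed assay numbers instead of the names, all 12 were detected, and 9 of the 12 were lower in hyperoxia. Relative abundance was lower in hyperoxia in 10 of the 11 wells, where 57.9% of all 551 assays tested were lower. The 8 first-card wells other than miR-322 were all lower, against 58.9% of the assays tested on that card and 60.3% of those detected in all samples. The median log2 difference of hyperoxia minus room air was -0.74 over the 11 wells, against -0.12 over all assays. The exception was the first-card well of miR-322. By limma, 0 of 551 assays (0%) had an adjusted p under 0.05, and so 0 of the cluster's wells. At an unadjusted p under 0.05 there were 50 assays (9.07%): 30 lower (5.44%), 4 of them in the cluster, and 20 higher (3.63%), 1 of them in the cluster. Nothing is read from these counts, since the same contrast led to the choice of the cluster. In whole lung, fewer cells of a type and less RNA per cell cannot be told apart.

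**Figure D1:**
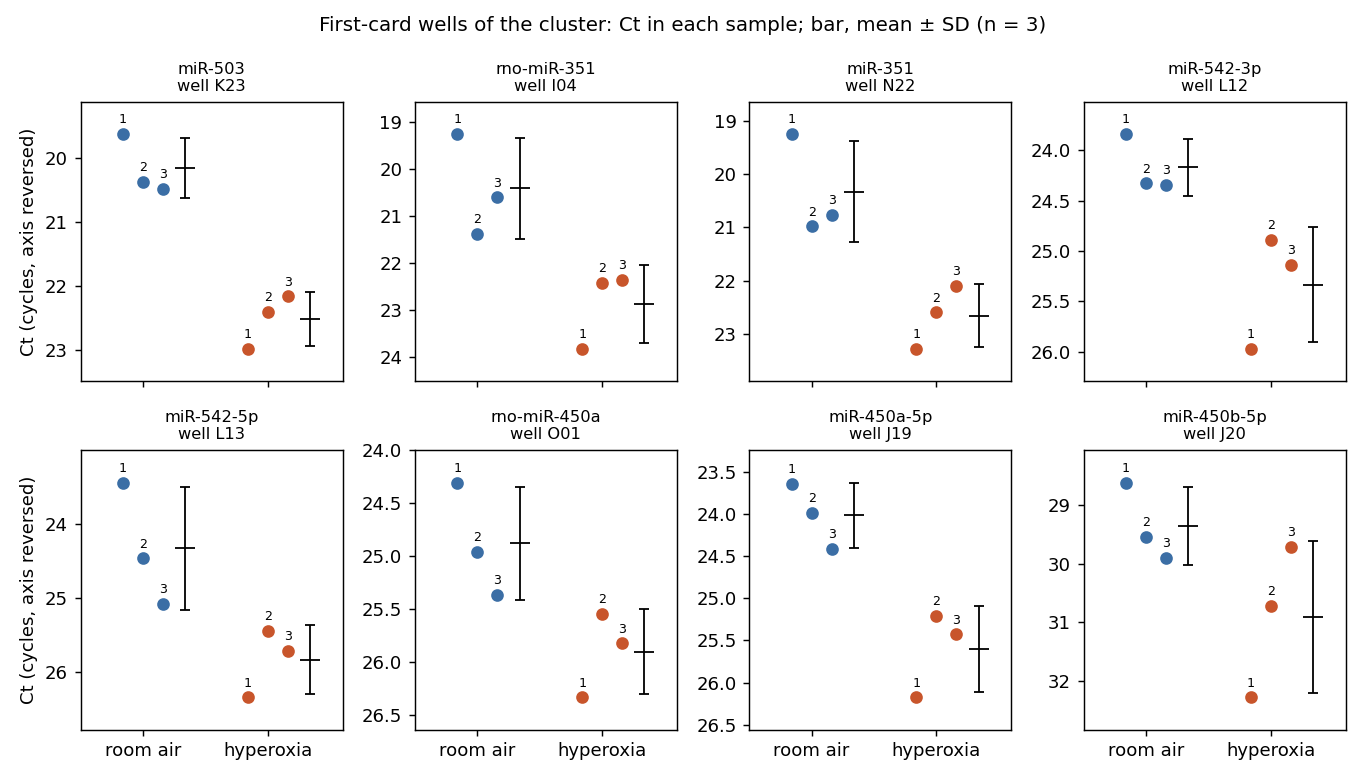
Ct (cycles, axis reversed so that more RNA is higher) of 8 first-card wells of the cluster in each room air and hyperoxia sample; the digit is the replicate and the bar the mean ± SD (n = 3). In 7 wells every hyperoxia sample has a later Ct than every room air sample, as in 46.5% of 282 first-card assays. In miR-450b-5p hyperoxia 3 lies within the room air range. These Ct values still hold the card's shift of 0.76 cycles between groups. In relative abundance, 4 of the 8 wells were lower in hyperoxia without overlap.

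miR-503 had the earliest mean Ct of the cluster's first-card wells in room air. Its Ct in room air was 19.63, 20.37 and 20.49, and in hyperoxia 22.99, 22.42 and 22.17. The hyperoxia samples were all later than the room air samples, by 2.36 cycles on average, while the SD within the groups was 0.47 and 0.42. As relative abundance, room air was at 2.40, 2.11 and 2.11 and hyperoxia at 0.48, 0.20 and 1.14. Hyperoxia 3 thus came nearest to room air, and the groups did not overlap. The log2 difference was -1.60 ± 0.32 (SE), a relative abundance 3.03 times higher in room air.

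miR-351, encoded 630 bp beyond Mir503, was read by a mouse and a rat assay. The mouse well had a Ct of 19.25, 20.98 and 20.76 in room air and of 23.27, 22.59 and 22.10 in hyperoxia. The rat well read 19.26, 21.38 and 20.61 cycles under room air, then 23.83, 22.43 and 22.36 under hyperoxia. Both wells showed the same picture: room air 1 stood far ahead of the other room air samples, hyperoxia 1 was the latest, and the groups did not overlap. Within a sample the 2 wells differed by 0.008 to 0.55 cycles. The log2 difference was -1.56 ± 0.49 (SE) by the mouse well and -1.70 ± 0.56 by the rat well, close to that of miR-503. Room air 1 weighs on both: without it they were at -1.19 and -1.29.

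The 2 arms of Mir542 were later in hyperoxia by less. miR-542-3p had a Ct of 23.84, 24.33 and 24.34 in room air and of 25.97, 24.89 and 25.14 in hyperoxia. miR-542-5p read 23.44, 24.46 and 25.08 cycles under room air, then 26.34, 25.44 and 25.71 under hyperoxia. The raw Ct did not overlap between groups in either well, but the relative abundance did in both. The log2 difference was -0.40 ± 0.27 (SE) for miR-542-3p and -0.74 ± 0.36 for miR-542-5p. These depend on single samples: miR-542-3p was at -0.26 without hyperoxia 1 and -0.62 without hyperoxia 3, and miR-542-5p at -0.47 without room air 1.

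miR-450a was again read by a mouse and a rat well. The mouse well, miR-450a-5p, had a Ct of 23.64, 23.99 and 24.41 in room air and of 26.18, 25.21 and 25.43 in hyperoxia. The rat well read 24.30, 24.96 and 25.37 cycles under room air, then 26.33, 25.55 and 25.82 under hyperoxia. In relative abundance the groups did not overlap in the mouse well and overlapped in the rat well. The log2 difference was -0.83 ± 0.27 (SE) by the mouse well and -0.26 ± 0.26 by the rat well. The rat well was 0.66, 0.97 and 0.96 cycles later than the mouse well in room air and 0.16, 0.34 and 0.39 cycles later in hyperoxia. The 2 wells named miR-450a thus gave differences of unlike size in the same samples. Whether the rat well reads the same mature RNA as the mouse well was not analysed. Without room air 1 the rat well was at -0.15, and without hyperoxia 3 at -0.42.

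miR-450b-5p had the latest Ct in room air among the detected wells. Its Ct was 28.61, 29.54 and 29.90 for room air; the hyperoxia samples read 32.28, 30.72 and 29.71. Hyperoxia 3 fell inside the room air range, and the hyperoxia samples spread by an SD of 1.30 cycles. The log2 difference was -0.79 ± 0.66 (SE), which was -1.51 without hyperoxia 3 and -0.28 without hyperoxia 1. The other arm, miR-450B-3P on the second card, had a Ct of 25.85 and 25.70 in room air and of 26.05 and 26.28 in hyperoxia, with a log2 difference of -0.20 ± 0.32 (SE, n = 2 per group). Its sign was not stable: it was positive with 4 other references or assignments of the shared values and with the assay numbers followed, as listed in the closing section.

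In relative abundance, 4 of the 9 first-card wells were lower in hyperoxia with no overlap between groups: miR-503, both miR-351 wells and miR-450a-5p. Among 282 first-card assays detected in all samples, 16.3% were. The miR-322 well of this card was higher without overlap, as were 5.67% of these assays, and 4 wells overlapped. In raw Ct, 7 of the 9 were later in hyperoxia without overlap, where 46.5% of the first-card assays were. These shares are given for scale only.

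**Figure D2:**
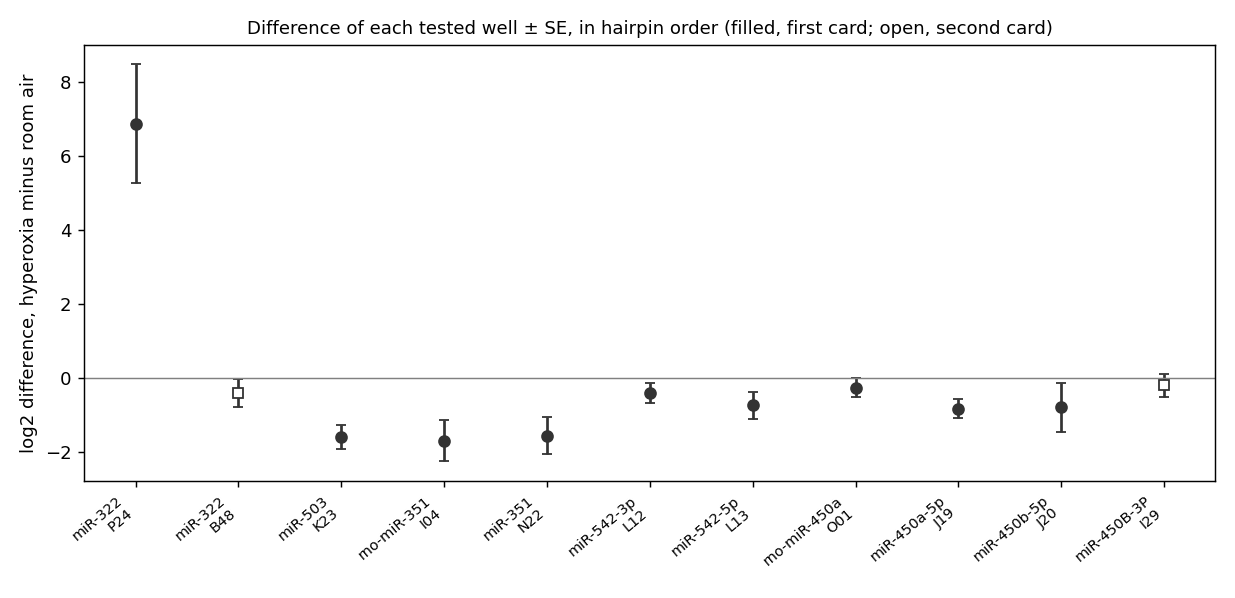
Log2 difference of hyperoxia minus room air (± SE from limma) for the 11 wells tested, ordered by hairpin from Mir322 to Mir450b; filled circles are first-card wells (3 samples per group) and open squares second-card wells (2 per group). miR-503 and miR-351 lie near -1.6, the miR-542 and miR-450 wells between -0.83 and -0.20, and the first-card miR-322 well at 6.87.

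Among the first-card wells other than miR-322, those of Mir503 and Mir351 differed more between groups than those of Mir542 and the Mir450 hairpins. The wells of Mir503 and Mir351, inside C430049B03Rik, ran from -1.70 to -1.56. The first-card wells of Mir542 and the Mir450 hairpins, outside that gene, ran from -0.83 to -0.26. The gap between these parts can be taken within each sample, where the reference drops out: the mean Ct of the miR-542 and miR-450 wells minus the mean Ct of the miR-503 and miR-351 wells, with wells of 1 name averaged first. It was 5.53, 4.93 and 5.47 cycles in room air and 4.44, 4.15 and 4.35 in hyperoxia. All 3 hyperoxia samples lay below all 3 room air samples. The means were 5.31 ± 0.33 (SD, n = 3) and 4.31 ± 0.15 (SD, n = 3), a difference of -0.995 cycles (-1.18 to -0.89 with 1 sample left out). Without miR-450b-5p the difference was -1.05 cycles. The miR-322 wells and the second-card minor strands miR-322# and miR-503#, also from hairpins inside the gene, are not in this gap. Of these, miR-503#, at -0.82, and the second-card miR-322 well, at -0.41, lay within the range of the first-card wells outside the gene. miR-322#, at -0.20, differed less still, and the first-card miR-322 well, at 6.87, was higher in hyperoxia. The parts also differ in Ct level, so position in the cluster and level cannot be told apart. This split was chosen after the values were seen and rests on the same contrast, so it has no test.

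**Figure D3:**
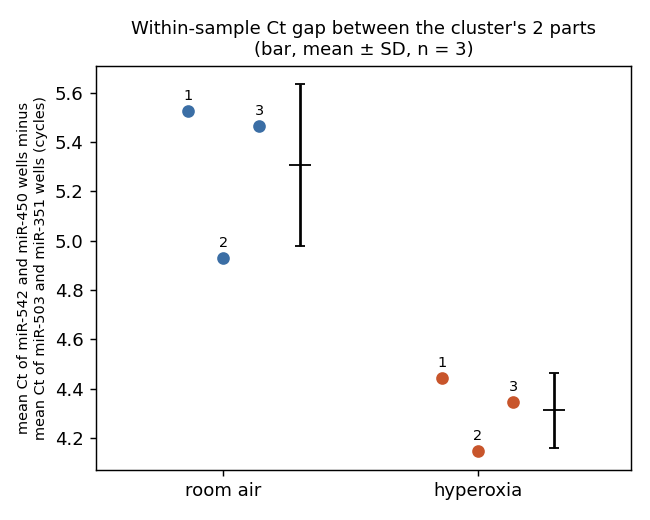
Ct gap (cycles) between the miR-542 and miR-450 wells and the miR-503 and miR-351 wells within each sample, by group; points are samples with the replicate as a digit and bars the mean ± SD (n = 3). Room air lies between 4.93 and 5.53 and hyperoxia between 4.15 and 4.44.

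The wells named miR-322 did not give 1 answer. The first-card well, P24, had a Ct of 28.72, 28.25 and 27.32 in room air and of 25.91, 19.97 and 20.07 in hyperoxia. All hyperoxia samples were earlier than all room air samples, but hyperoxia 1 lay far behind the other two. The log2 difference was 6.87 ± 1.61 (SE). Without hyperoxia 1 it was 8.66 ± 0.65 (SE). This was the single setting in which a well of the cluster passed limma's adjusted threshold (adjusted p = 0.0173). It leaves out the very sample that lay apart, and miR-322 values of this contrast were known when the cluster was picked. Nothing is therefore read from this p. The second-card well, B48, had a Ct of 20.34 and 19.78 in room air and of 20.44 and 20.87 in hyperoxia, a log2 difference of -0.41 ± 0.38 (SE, n = 2 per group) with groups that overlapped.

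For the same samples, P24 was later than B48 by 7.91 cycles in room air 2, 7.54 in room air 3 and 5.47 in hyperoxia 1, and 0.80 cycles earlier in hyperoxia 3. The table does not say which arm each well reads, and the identity of second-card wells such as B48 is uncertain. In RefSeq's Mir322 hairpin, shown with both mature arms in capitals, the first run is miR-322-5p and the second miR-322-3p.

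Mir322 hairpin: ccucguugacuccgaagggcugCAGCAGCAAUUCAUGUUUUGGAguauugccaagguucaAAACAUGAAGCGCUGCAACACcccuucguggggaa

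The hyperoxia Ct of P24 had an SD of 3.40 cycles. Of 282 first-card assays, 12 had an SD there at least as large, P24 included, and 5 of them, P24 among these, lie outside plate row G, whose readings scatter (median SD 1.70 cycles, against 0.70 in row P and 0.40 to 0.64 in the others). 0 wells of the cluster lie in row G. P24 is the last well of its card. What set its values apart was not tested.

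The minor strands of the same hairpins were read on the second card. miR-322# had a Ct of 19.31 and 18.85 in room air and of 19.35 and 19.58 in hyperoxia, a log2 difference of -0.20 ± 0.34 (SE, n = 2 per group). miR-503# read 21.43 and 22.15 cycles under room air, then 22.76 and 22.82 under hyperoxia, a log2 difference of -0.82 ± 0.44 (SE, n = 2 per group), on the same side of 0 as miR-503. The groups overlapped for miR-322#. miR-503# was lower without overlap, as were miR-450B-3P and 16.9% of the 249 second-card assays. By this relative abundance, neither miR-322# nor the second-card miR-322 well was higher in hyperoxia, as P24 was. Both rest on second-card names, and the identities of second-card wells are uncertain. With the assay numbers followed, the well taken in place of B48 was at -0.75. With the first-card mean as reference of both cards, B48 was at 0.25.

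**Figure D4:**
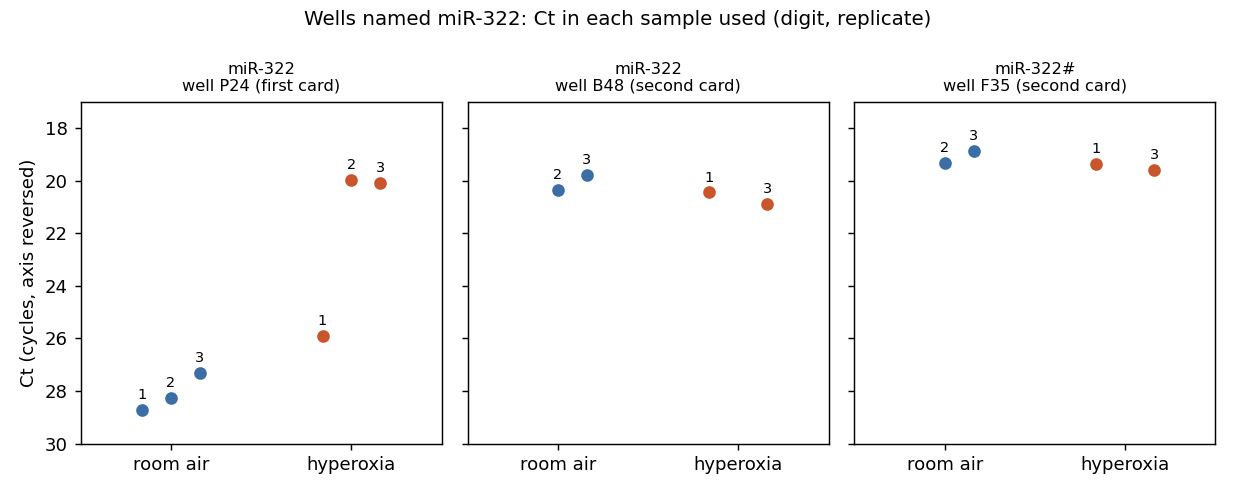
Ct (cycles, axis reversed) of the 3 wells named miR-322 or miR-322# in each sample used, by group, with the replicate as a digit. P24 spans 19.97 to 28.72 over the samples, while B48 stays between 19.78 and 20.87 and miR-322# between 18.85 and 19.58.

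The Ct order of the first-card wells in room air, a description since assays differ in efficiency, began with miR-503 (mean 20.2), mouse miR-351 (20.3) and rat miR-351 (20.4), which lie within the spread between samples. miR-450a-5p (24.0), miR-542-3p (24.2), miR-542-5p (24.3) and rat miR-450a (24.9) followed, each neighbour less than the larger SD of the pair away. P24 (28.1) and miR-450b-5p (29.4) came last and lay further apart than their SD. In hyperoxia miR-503, mouse miR-351 and rat miR-351 were at 22.5, 22.7 and 22.9.

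Samples of 1 group also differed together across the cluster, which the choice of wells did not use. Each well's relative abundance was set against the mean of its own group, so the difference between groups drops out. Over the 6 samples, all 28 pairs among the 8 first-card wells other than P24 then correlated above 0 (Pearson), from 0.34 for the 2 arms of Mir542 to 0.94 for miR-542-5p with rat miR-450a, with a median of 0.76. Over all pairs of the 282 first-card assays the median was 0.0081 and 50.5% of pairs were above 0. Of all pairs, 31.4% were at or above the cluster's lowest r and 8.88% at or above its median. The cluster's pairs include the mouse and rat wells of miR-351 and those of miR-450a. The points share libraries and the card's reference, and 6 samples in 2 groups leave few independent deviations. With other references the median over the 28 pairs ran from 0.70 to 0.88, all pairs staying above 0, while the median over all assay pairs rose to 0.42 without normalization. Hyperoxia 3 carries much of it: it stood above the hyperoxia mean in 8 of 8 wells. Without it 20 of 28 pairs were above 0, the median was 0.49 and the lowest r -0.64. P24 correlated with the 8 wells by 0.0019 to 0.80.

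**Figure D5:**
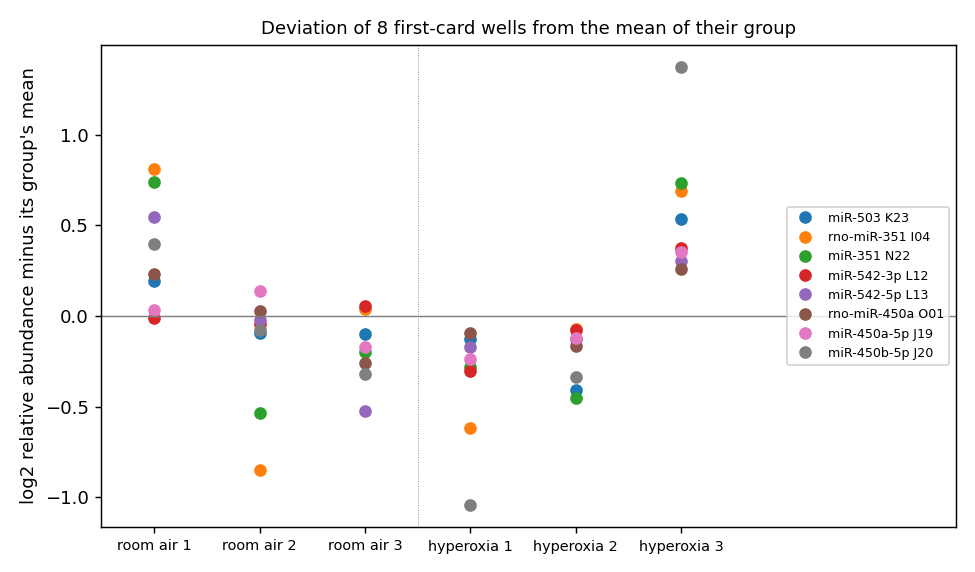
Deviation of log2 relative abundance from the mean of the sample's own group, for 8 first-card wells of the cluster (colours) in each of 6 samples. All 8 wells lie above 0 in hyperoxia 3 and below 0 in hyperoxia 1 and 2; room air 1 has 7 wells above 0.

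Across the 6 samples, the first-card assays outside the cluster with the pattern most like miR-503 were the heart-muscle miR-208b (Pearson r 0.97), the epithelial miR-203 (0.96), miR-708 (0.93), miR-30e (0.92) and miR-671-3p (0.91). Their log2 differences were -1.06, -0.29, -1.36, -0.32 and -0.76. Of the 281 other first-card assays, miR-450a-5p ranked 2nd in likeness to miR-503, mouse miR-351 4th and rat miR-351 11th. miR-542-3p, miR-542-5p, rat miR-450a and miR-450b-5p ranked 23rd, 24th, 36th and 58th, and P24 268th. These r values follow the difference between groups as well as the samples, and so restate in part what the choice of wells used. The assay most like mouse miR-351 was miR-30e (0.96) and most like rat miR-351 miR-669a (0.96). For miR-542-3p it was rno-miR-190b (0.94), for miR-542-5p miR-342-3p (0.96), for miR-450a-5p miR-153 (0.98), for rat miR-450a miR-30c (0.99), for miR-450b-5p miR-598 (0.92) and for P24 rno-miR-327 (0.89), a well of row G.

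Assayed miRNAs with the seed of miR-322 or of miR-351, encoded on other chromosomes, were read beside the cluster. Those with the seed of miR-322 share only the first 6 seed bases with miR-503. Of the 5 relatives of miR-322 and miR-503, 4 were below 0 with a median of -0.34: miR-16 at -0.70 ± 0.35 (SE), miR-497 at -0.53 ± 0.25, miR-195 at -0.34 ± 0.23 and miR-15b at -0.18 ± 0.28, with miR-15a at 0.02 ± 0.27. The relatives of miR-351 lay on both sides, miR-125a-5p at -0.91 ± 0.47 and miR-125b-5p at 0.20 ± 0.24. By limma 0 of these 7 passed, and 0 had an unadjusted p under 0.05. With the small RNA controls as reference or without normalization all 7 were below 0, and miR-15a was also below 0 with the median as reference. The 8 first-card wells of the cluster other than P24 were below 0 with every reference tried and without normalization. Their median ran from -1.57 to -0.81. The first-card mean as reference of both cards leaves these wells unchanged. Of all 551 assays, 436 were below 0 with the small RNA controls and 427 without normalization, with a median of -0.62 in both settings.

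Of 39 other X-linked miRNA wells tested, 17 were below 0 and the median was 0.10. Some miRNAs, by name, have more than 1 well among the 39. RefSeq could place 477 of 628 wells that are neither minor strands nor of the cluster. The side turned with the reference: 27 of 39 were below 0 with the small RNA controls (median -0.42) and 30 of 39 without normalization (median -0.37). The difference from the cluster was not tested. miR-221 at 1.30 ± 0.31 (SE), miR-509-3p at 1.38 ± 0.50 and miR-222 at 0.72 ± 0.32 had the smallest unadjusted p among them, and 0 of 39 passed limma's adjusted threshold (2 had an unadjusted p under 0.05).

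Markers of cell types whose share could move with the cluster were read beside it, and their part in the result was not tested. In the striated muscle list 6 of 7 assays were below 0, from -1.06 to 1.31 with a median of -0.58. The smooth muscle and mesenchymal list had 4 of 9 below 0 (-0.68 to 1.61, median 0.24), the endothelial list 2 of 2 (-0.61 and -0.14) and the epithelial list 6 of 9 (-0.49 to 0.12, median -0.12). Leukocyte assays had 2 of 5 below 0 (-1.09 to 0.94, median 0.60) and erythroid assays 1 of 3 (-1.29 to 0.71, median 0.24). The miR-17 to miR-92a assays, abundant in dividing cells, were all 6 below 0 (-0.53 to -0.19, median -0.47). miR-210, which rises at low oxygen, was at -0.26 and the liver miRNA miR-122 at -0.69. By limma 0 assays of these lists passed. At an unadjusted p under 0.05, 4 were lower (miR-208b, miR-145, miR-150 and the human-design miR-144 well) and miR-21 was higher.

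The authors' deposited table gives a fold of hyperoxia over room air with no test, set against the U6 wells of the first card's row A for both cards. It includes the values that room air 1 and hyperoxia 2 share. In the authors' deposited table the fold was 0.263 for miR-503, 0.270 and 0.246 for mouse and rat miR-351, 0.604 and 0.476 for miR-542-3p and miR-542-5p, 0.449 and 0.665 for mouse and rat miR-450a and 0.462 for miR-450b-5p. In the authors' deposited table P24 had a fold of 93.5, the second-card miR-322 well 1.03 and miR-450B-3P 1.13. The relative abundance of these second-card wells was lower in hyperoxia here (log2 difference -0.41 and -0.20). For miR-450a-3p the authors' deposited table lists 1.35, although every sample is listed at a Ct of 40. That value is the difference in U6 alone.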

How the data were processed

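Ct values of 6 right lung samples were taken as deposited. Per the labels' protocols, RNA was reverse transcribed with Megaplex primer sets A and B and pre-amplified for 12 cycles. The authors deposited a threshold cycle per well, used here as a score that is not normalized, and a fold, a ratio of hyperoxia over room air. Instrument, software and Ct threshold are not given in the sources used here. The 768 wells were read as 2 cards of 384.

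A Ct of 35 or more was left missing. Each card's mean Ct of the miRNAs detected in all samples used (282 and 249 assays) was the reference. An assay detected in at least 2 samples of each group was fitted with limma 3.58.1 in R 4.3.3 (lmFit, eBayes, two-sided, Benjamini-Hochberg over 551 assays, threshold 0.05; prior degrees of freedom 1.62). The fit was tested on simulated data with the same spread in every well. The spread here is uneven, so that run checks the code and not the error rate in these data. The labels do not say that samples were separate animals, so a p-value reflects only how these samples vary, perhaps technically; their small number limits precision. The 105 second-card names that carry an assay number match the number listed 3 wells later, so second-card identities are uncertain; names were used. Members, lists and alternatives were chosen with earlier results of these data known. Named besides the members are their seed relatives, minor strands, the assays most like them and up to 4 examples of a list.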

Additional observations from a re-analysis of the deposited data

How the results depend on the processing

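Over 29 alternative settings, the 8 first-card wells other than P24 stayed below 0 and P24 above 0 wherever they were tested. Many of these settings could not move a first-card difference. Those that touch only the second card, the filter, the wells at a Ct of 40, the replicate block or the eBayes options left it unchanged. Only other references, Ct ceilings, row G and left-out samples bear on these wells. The median over the cluster's wells ran from -1.04 to -0.47 with 1 sample left out (-0.47 without room air 1). It was -1.31 with the small RNA controls as reference, -1.50 without normalization and -0.39 with a Ct ceiling of 32. Wells without overlap in either direction, P24 among them, were 6 of 11 over both cards. For scale, 16.3% of 282 first-card assays were lower without overlap and 5.67% higher. With room air 1 or hyperoxia 2 left out, the count was again 6 of 11. Leaving out any other sample kept only the 9 first-card wells. Of these 9, the groups did not overlap in 5 without hyperoxia 1, 6 without room air 2, 7 without room air 3 and 9 without hyperoxia 3. With no normalization the count was 10 of 11. Without normalization 46.5% of the first-card assays were later in hyperoxia without overlap. Groups with a sample left out separate more easily, and the share over all assays was not taken there. Nothing is read from these counts. On the second card, miR-450B-3P was at 0.17 with the median as reference, 0.065 with quantile normalization, 0.46 with the first-card mean for both cards, 0.029 with the shared values kept in room air and 0.28 with the assay numbers followed; the miR-322 well B48 was at 0.25 with the first-card mean for both cards. The count of assays passing limma, 0, became 1 with a Ct ceiling of 28 or 32, with the first card alone, with row G left out and with a trend in eBayes, 2 without a filter and 8 with a Ct of 40 as a measurement, 0 of them in the cluster; it was 0 to 1 with 1 sample left out, the 1 being P24 without hyperoxia 1. Same-numbered samples did not deviate together (r of -0.34, -0.23 and -0.18). The labels do not say whether the numbers pair samples, and with 3 samples per group these r values cannot settle it. With the replicate block 0 assays passed and the cluster's median was -0.79. Leaving out P24, chosen after its values were seen, gave a median of -0.77. The causes were not tested. The number of samples limits all values, and a Ct near the ceiling limits miR-450b-5p.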
